A study of Mus musculus with 8 samples.

Results

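Epithelial cells isolated from the mouse small intestine gave 6 siRNA arrays that fell apart by their level of mitotic genes, the genes that dividing crypt cells use to separate their chromosomes. The arrays were put into 2 sets by the mean log2 intensity of Mki67, Top2a, Ccnb2, Plk1 and Bub1, with the dividing level at 6.5. The rule also names Ccnb1, which was not used here because no probe set was assigned to it alone. The mean was 8.61 in siGFP 1, 8.76 in siYAP/TAZ 1 and 7.95 in siGFP 2, the crypt-rich set. It was 5.96 in siYAP/TAZ 2, 5.77 in siGFP 3 and 5.67 in siYAP/TAZ 3, the crypt-poor set. The arrays nearest to the dividing level were therefore siGFP 2 on one side and siYAP/TAZ 2 on the other. These 6 arrays are all those of the siRNA arm, out of 8 in the series. In the shRNA arm, which the rule did not use, the same mean was 8.00 in shLacZ and 8.01 in shYAP/TAZ.

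All arrays come from male ICR mice, an outbred stock, 8 weeks old, whose small intestine had been transfected in the living animal 4 days earlier. The siGFP arrays carry a control siRNA against the jellyfish protein GFP, the siYAP/TAZ arrays siRNAs against YAP and TAZ, the shLacZ array a plasmid whose shRNA targets LacZ of bacteria, and the shYAP/TAZ array plasmids for shRNAs against YAP and TAZ, the coactivators that the Hippo pathway restrains. The labels do not say which cells took up the nucleic acids, which stretch of the small intestine was taken, or whether an array stands for 1 mouse. Each set mixes the labels, with 2 siGFP arrays and 1 siYAP/TAZ array in the crypt-rich set and 1 siGFP array and 2 siYAP/TAZ arrays in the crypt-poor set.

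The intestinal epithelium is renewed from crypts, pits that hold the stem cells, the dividing progenitors and the Paneth cells that guard them. Progeny stop dividing as they leave the crypt and climb the villus, where enterocytes build a brush border of microvilli and absorb food, changing their genes along the way until they are shed at the tip. An isolate of epithelial cells can hold crypts and villi in any proportion. In bulk RNA of this kind, fewer cells of a type and less RNA per cell cannot be told apart.

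Because the sets were chosen on measured levels of these arrays, the differences between them are described and not tested. A level is the quantile-normalized log2 intensity of a gene, and a difference is the mean of the crypt-rich set minus the mean of the crypt-poor set, so that 1 is a 2-fold change. In what follows, the values of the crypt-rich set are listed in the order siGFP 1, siYAP/TAZ 1 and siGFP 2, and those of the crypt-poor set in the order siYAP/TAZ 2, siGFP 3 and siYAP/TAZ 3. A gene is counted as higher or lower when the sets were at least 2-fold apart and did not overlap. Of 19933 genes, the defining genes left out, 1931 (9.69%) were higher and 891 (4.47%) were lower in the crypt-rich set. Without the 2-fold limit, the sets did not overlap for 4209 genes (21.1%) in the higher and 4633 (23.2%) in the lower direction. The median difference over all genes was -0.09. The lower count depended on single arrays, with 568 genes without siYAP/TAZ 1 and 1809 without siGFP 2.

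Some properties of the arrays moved with the sets or cut through them. The arrays numbered 1 and those of the shRNA arm had a highest deposited intensity between 11959 and 15713, and those numbered 2 and 3 between 18731 and 20064. Small nucleolar RNAs, which guide the modification of ribosomal RNA, split the arrays in the same way. Over 54 such genes the mean level was 7.44, 7.51 and 8.96 in the crypt-rich set, 9.63, 8.70 and 9.02 in the crypt-poor set, 7.21 in shLacZ and 7.72 in shYAP/TAZ, so that siGFP 2 lay with the crypt-poor arrays. siGFP 2 is the only crypt-rich array on that side, and differences are therefore also given for siGFP 2 alone against the 3 crypt-poor arrays. That comparison had 1283 higher (6.44%) and 455 lower genes (2.28%), of which 974 and 246 were among those called between the full sets.

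The genes of mitosis that the rule did not name were higher almost without exception. Of 28 measured, 27 were higher and 0 lower, with a median difference of 1.83. Ube2c, which loads ubiquitin onto mitotic cyclins, stood at 10.33, 10.57 and 9.84 in the crypt-rich set and at 7.63, 7.02 and 7.47 in the crypt-poor set. Ccna2, the cyclin of S phase and mitotic entry, stood at 9.85, 9.84 and 8.98 against 7.04, 6.19 and 6.47. Every crypt-rich array lay above every crypt-poor one for both genes. The set means were 10.25 ± 0.37 and 7.37 ± 0.32 for Ube2c (SD, n = 3), a 7.35-fold gap. Cdk1, the kinase that drives entry into mitosis, differed by 2.71, and Aurkb, of the chromosomal passenger complex, by 2.61. The exception was the kinetochore gene Ndc80, whose sets did not overlap but lay 0.31 apart. In siGFP 2 alone, 22 of the 28 were higher than in the crypt-poor arrays.

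**Figure D1:**
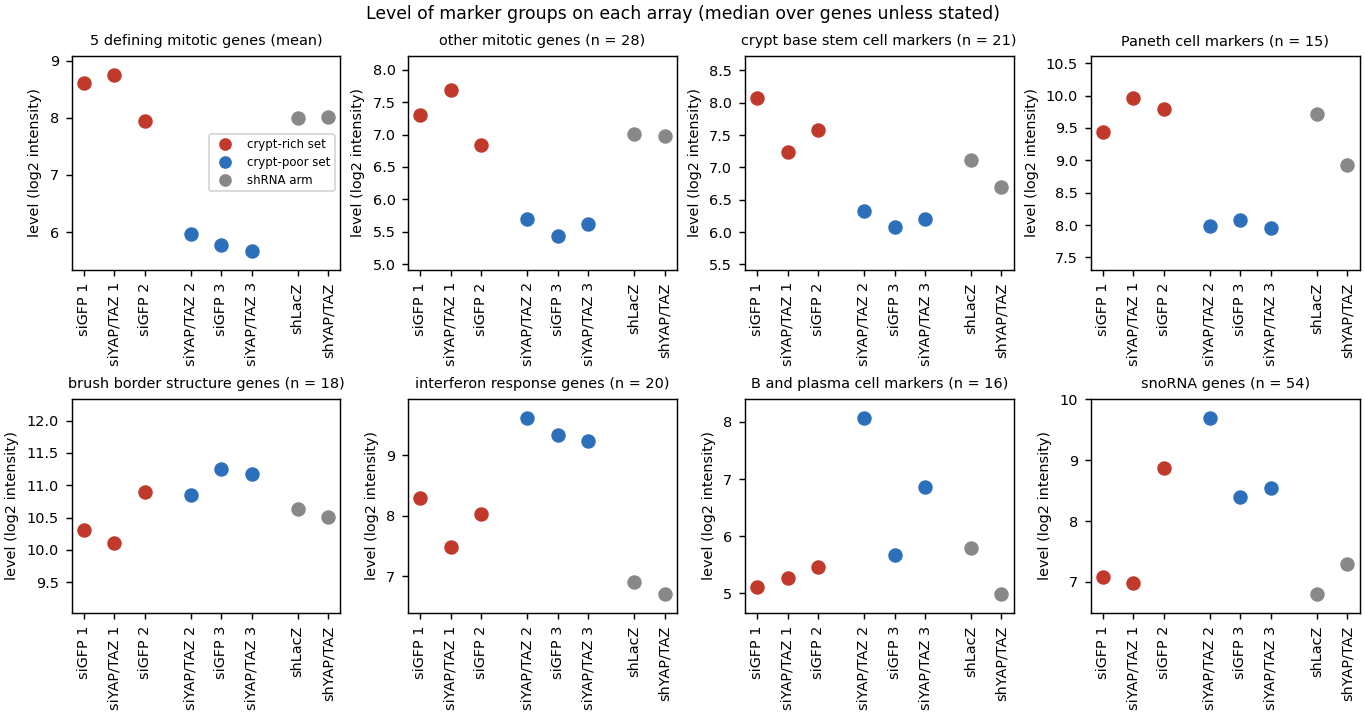
Level on each array (log2 intensity) of the 5 defining genes (mean), of 6 gene lists and of 54 small nucleolar RNA genes (medians over genes), with the crypt-rich set in red, the crypt-poor set in blue and the shRNA arm in grey. The mitotic, stem cell and Paneth panels part the sets as the defining genes do, while in the panel of small nucleolar RNA genes siGFP 2 lies with the crypt-poor arrays.

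Promoters of mitotic genes are shown because many of them hold the same short element. The cell cycle genes homology region (CHR, letters TTTGAA) is bound by complexes that hold these genes silent outside late cell cycle phases, and the CCAAT box by NF-Y. RefSeq windows of GRCm38.p6, 250 bases before to 50 after each start site, were searched on both strands. A CHR was present in 17 of 23 mitotic genes with a window (73.9%), against 18.1% of all 27025 windows, and a CCAAT box in 16 (69.6%), against 37.9%. Among the DNA replication genes 3 of 24 (12.5%) held a CHR and among the stem cell markers 0 of 14. Among all genes called higher it was present in 253 of the 1580 that have a window, against 2364 of the 15609 measured genes with one. The bases before the start site of Ube2c (chr2:164769679-164769928 on the plus strand) and of Cdk1 (chr10:69352913-69353162 on the minus strand) are printed 5′ to 3′, with each CHR in capitals, on either strand. It begins 29 bases before the start of Ube2c, on the strand opposite to the gene, and 71 and 15 bases before that of Cdk1.
Ube2c promoter: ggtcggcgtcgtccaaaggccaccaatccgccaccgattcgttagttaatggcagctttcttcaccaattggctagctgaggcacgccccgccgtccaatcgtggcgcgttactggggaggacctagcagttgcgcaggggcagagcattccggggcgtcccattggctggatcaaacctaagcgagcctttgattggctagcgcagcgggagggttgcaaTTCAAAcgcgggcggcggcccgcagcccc
Cdk1 promoter: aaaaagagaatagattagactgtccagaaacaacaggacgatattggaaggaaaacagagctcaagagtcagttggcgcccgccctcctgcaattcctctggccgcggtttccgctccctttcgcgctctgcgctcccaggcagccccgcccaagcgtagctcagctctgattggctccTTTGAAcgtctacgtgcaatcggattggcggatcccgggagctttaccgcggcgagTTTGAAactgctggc
A match of letters is a description and not a bound site.

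DNA replication genes followed the mitotic ones, with 22 of 29 higher, 0 lower and a median difference of 1.55. Mcm5, a subunit of the helicase that opens replication origins, stood at 8.66, 9.0 and 7.47 against 5.74, 5.02 and 5.15. Rfc4, of the clamp loader, stood at 7.90, 8.10 and 7.49 against 5.06, 4.59 and 4.72. The gap between the sets was 8.43-fold for Mcm5 and 8.22-fold for Rfc4, with no overlap. Rrm2, which supplies deoxynucleotides, differed by 2.71 and Mcm4 by 2.30. The sets overlapped for Mcm10, Ccne2, Cdc6 and Tk1, whose differences lay between -0.22 and 0.45. For Tk1, thymidine kinase, that holds for the brighter of its probe sets (0.37), while the dimmer one differed by 1.69.

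Genes that build ribosomes were higher in 20 of 24 cases and lower in 0, with a median of 1.40. Myc, the transcription factor that drives growth, stood at 8.00, 8.51 and 7.84 against 6.32, 5.12 and 6.04. Dkc1, which modifies ribosomal RNA in complexes with small nucleolar RNAs, stood at 7.85, 8.47 and 7.64 against 5.91, 4.92 and 5.60. Neither gene overlapped between the sets, and Dkc1 was high in siGFP 1 and siYAP/TAZ 1, where the small nucleolar RNAs were low. Nop16 differed by 2.17 and Polr1b, of RNA polymerase I, by 2.08. In siGFP 2 alone the count was 11 of 24.

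Markers of the crypt base stem cell were higher in 16 of 21 cases and lower in 0, with a median of 1.68. Lgr5, the R-spondin receptor that marks these cells, stood at 8.57, 6.91 and 8.30 against 6.13, 5.48 and 4.95. Olfm4, a secreted stem cell product, stood at 11.53, 9.21 and 11.37 against 9.16, 8.00 and 7.24. For both, siYAP/TAZ 1 was the lowest crypt-rich array, and for Olfm4 it lay only just above siYAP/TAZ 2. Aqp4, a water channel of the crypt base, had the opposite spread, with 7.27, 9.04 and 6.97 against 5.24, 4.68 and 4.51. Slc12a2, a chloride cotransporter, differed by 2.83 and Cdca7 by 2.47. Bmi1, Tnfrsf19, Axin2 and Nkd1 overlapped between the sets, with differences between -0.33 and 0.43. In siGFP 2 alone, 14 of the 21 were higher and the median was 1.76.

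Wnt signals sustain the stem cells, and 10 of 16 Wnt target genes were higher and 0 lower, with a median of 1.39. Most of the 10 were already counted above. Lgr5, Ascl2, Rnf43, Znrf3, Cd44, Ephb3 and Sox9 are also on the stem cell list and Myc is on the ribosome list, which leaves Ccnd1 and Tiam1. Ccnd1, a cyclin of the G1 phase, stood at 10.29, 10.09 and 9.13 against 8.33, 6.72 and 7.52, with no overlap. The feedback inhibitors did not move together. Rnf43 and Znrf3, which remove Wnt receptors from the membrane, differed by 1.37 and 1.20, while Axin2, Nkd1 and Notum overlapped, with differences of 0.43, -0.33 and -0.50.

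Paneth cells store antimicrobial proteins in granules at the crypt base. Their markers, not all of them such proteins, were higher in 10 of 15 cases and lower in 0, with a median of 1.62. Pla2g2a, a secreted phospholipase and the gene with the largest difference of all those eligible to be named, stood at 12.64, 12.07 and 10.93 against 7.31, 9.10 and 9.61, a 9.23-fold gap. Lyz1, Paneth lysozyme, stood at 12.37, 12.35 and 12.56 against 10.89, 11.06 and 10.47. Lyz1 varied little within the crypt-rich set (12.43 ± 0.11, SD, n = 3), whereas Pla2g2a spanned over 2 units within the crypt-poor set. Ang4, an antimicrobial ribonuclease, differed by 2.61 and Cd24a by 2.29. Mptx1, Guca2b, Pnliprp2 and Nupr1 overlapped between the sets, with differences between 0.17 and 1.35. For Dll4 the crypt-rich arrays were all lower, by less than 2-fold (-0.64). Defensin genes share sequence, and Defa24 (1.99) may carry signal from its relatives. In siGFP 2 alone, 11 of the 15 were higher.

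**Figure D2:**
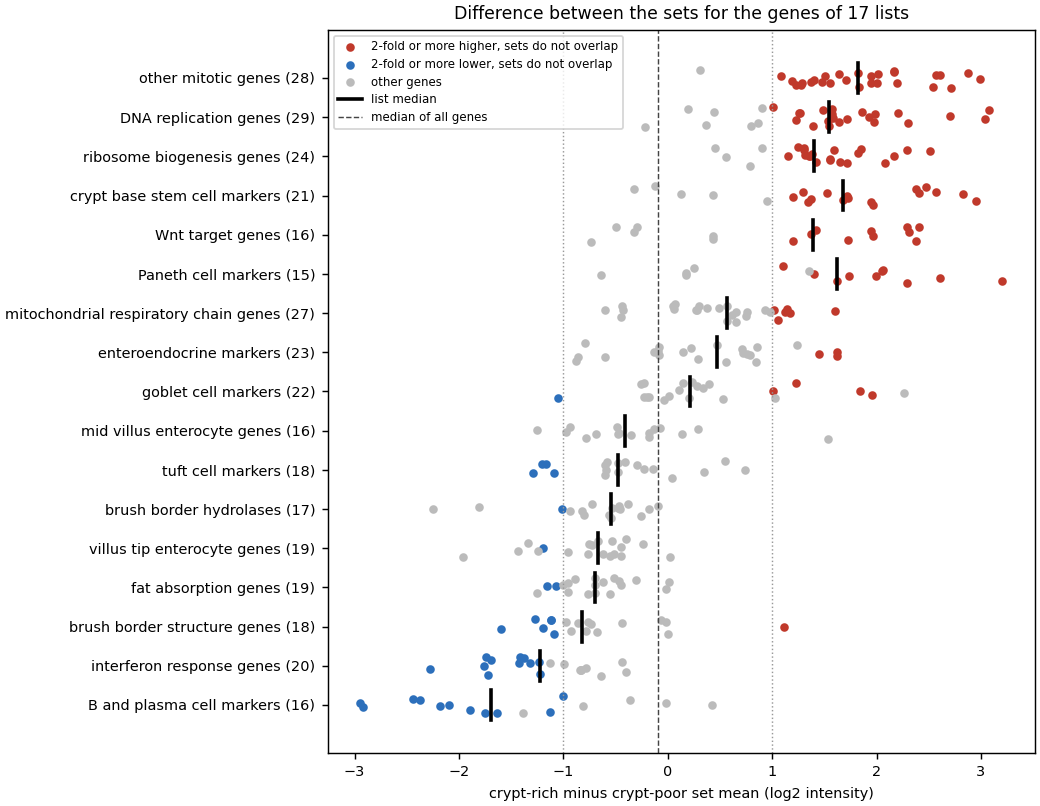
Difference between the sets (crypt-rich minus crypt-poor mean, log2 intensity) for each gene of 17 lists, coloured where the sets were at least 2-fold apart without overlap, with the list median as a black bar. The mitotic list has a median of 1.83 and the B cell list, at the other end, one of -1.69, while the median of all genes (dashed) is -0.09.

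Mature secretory cells did not follow the crypt genes as a group. Of 22 goblet cell markers 4 were higher (18.2%, against 9.69% of all genes) and 1 lower (4.55%, against 4.47%), with a median of 0.21. Muc2, the main gel-forming mucin, stood at 12.60, 11.45 and 11.06 against 11.65, 12.51 and 11.56, and the sets overlapped. The higher ones were Atoh1 (1.01), the transcription factor that commits cells to secretion, Creb3l1 (1.84) and Creb3l4 (1.23), transcription factors of the secretory pathway, and Spink4 (1.96), a protease inhibitor found in goblet cells. Spink4 stood at 11.00, 10.49 and 10.24 against 9.64, 8.20 and 8.01. Fer1l6 was lower (-1.05).

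Of 23 enteroendocrine markers 3 were higher (13.0%, against 9.69% of all genes) and 0 lower, with a median of 0.47. Neurog3, the factor that starts the endocrine programme in crypt progenitors, stood at 5.48, 6.57 and 5.97 against 4.15, 4.40 and 4.60. The hormones Cck and Tac1 differed by 1.45 and 1.62. Chga, a granule protein of mature endocrine cells, overlapped, with a difference of 0.14. For the hormone secretin, Sct, the crypt-rich arrays were all lower, by less than 2-fold (-0.88). Tuft cells, chemosensory cells of the epithelium, had 4 of 18 markers lower (22.2%, against 4.47% of all genes) and 0 higher, with a median of -0.48. Pou2f3, their lineage factor, stood at 6.41, 5.93 and 6.29 against 7.53, 7.77 and 7.20, and Gnat3, a taste transduction subunit, differed by -1.20. Spib and Plcg2 (-1.17 and -1.09) were lower too, and both are also used by B cells. Dclk1 and Trpm5, other tuft markers, overlapped, with 0.35 and -0.41.

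Genes of the villus were lower on average, with smaller differences than the crypt genes had in the other direction. Among 18 genes of brush border structure and its regulators, 6 were lower (33.3%, against 4.47% of all genes) and 1 higher (5.56%, against 9.69%). The median was -0.82. Ush1c, a scaffold at the tips of microvilli, stood at 9.79, 9.26 and 10.12 against 11.04, 11.02 and 10.93. Cdhr2, a protocadherin that links microvilli, stood at 11.17, 10.25 and 11.59 against 11.82, 12.64 and 12.13. Neither gene overlapped, and in both siGFP 2 was the crypt-rich array nearest to the crypt-poor ones. Pdzk1 (-1.60), a scaffold beneath the microvillar membrane, Espn (-1.12), Myo7b (-1.12) and Plin3 (-1.09) were the others. Plin3 was on the list but is a perilipin and not a structural brush border gene. Vil1, villin, did not overlap but was under 2-fold apart (-0.93). The higher gene was Cdx2, an intestinal transcription factor and no part of the brush border, at 9.92, 9.63 and 8.92 against 8.21, 8.49 and 8.42.

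Brush border hydrolases, which finish the digestion of sugars and peptides, all had lower means in the crypt-rich set, 17 of 17, with a median of -0.55. Only Dpp4, a peptidase, was counted as lower (5.88%, against 4.47% of all genes), at 10.48, 10.14 and 10.80 against 11.33, 11.58 and 11.55. Larger gaps were measured for Treh, which splits trehalose, at 8.65, 7.50 and 11.04 against 10.72, 11.54 and 11.66, and for lactase, Lct, at 9.39, 7.78 and 12.01 against 10.53, 11.87 and 12.22. In both, siGFP 2 lay within the crypt-poor set and siGFP 1 and siYAP/TAZ 1 lay below it. The promoter of Treh is shown as that of the hydrolase with the largest lower difference, although its sets overlapped. It holds the element CAAAGTCCA of HNF4, the transcription factor of the enterocyte. This element was found in 2 of 14 hydrolase genes with a window (14.3%), against 0.477% of all windows. It was found in 1 of 14 brush border structure genes, 0 of 17 villus tip genes and 0.74% of the genes called lower. In the bases before the start site (chr9:44672983-44673232 on the plus strand) the capitals mark it, read on the opposite strand and beginning 71 bases before the start.
Treh promoter: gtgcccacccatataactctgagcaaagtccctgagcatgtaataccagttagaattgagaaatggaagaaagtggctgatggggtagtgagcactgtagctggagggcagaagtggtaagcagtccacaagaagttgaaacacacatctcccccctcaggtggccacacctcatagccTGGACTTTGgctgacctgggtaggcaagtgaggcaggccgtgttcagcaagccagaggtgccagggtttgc
The CHR can share the letters GAA with the interferon element given further on and, on the opposite strand, CAAA with the HNF4 element.

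Among genes of the villus tip, 1 of 19 was lower (5.26%, against 4.47% of all genes), Creb3l3, a regulator of lipid export, at -1.19. In that list 18 of 19 had a lower mean, with a median of -0.67. Nt5e, an adenosine-producing enzyme of the tip, stood at 7.96, 7.48 and 11.22 against 10.27, 11.12 and 11.17, again with siGFP 2 at the level of the crypt-poor arrays. Fat absorption genes had 2 of 19 lower (Acsl5 at -1.07 and Gpat3 at -1.15) and a median of -0.70. Mid villus genes had 0 of 16 in either direction and a median of -0.41, and villus bottom genes 0 of 12 and 0.15. In siGFP 2 alone, 0 of 18 brush border genes and 0 of 17 hydrolases were lower, against 2.28% of all genes in that comparison. Lists of this size would hold few or no lower genes at that share, so 0 does not by itself show a lost difference. The median there was -0.01 for the villus tip and 0.09 for fat absorption. The full sets had 6 lower brush border genes and 1 lower hydrolase, against 4.47% of all genes. Their overlap rule involves every crypt-rich array, so these counts are not directly comparable with those of siGFP 2 alone. In siGFP 2 alone the medians of these lists kept their sign but were smaller, at -0.52 for the brush border and -0.27 for the hydrolases. The stem cell and Paneth counts there were 14 and 11 beside 16 and 10 between the full sets.

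B cell genes had the largest median of the 41 lists on the crypt-poor side. Of 16 B and plasma cell markers 11 were lower in the crypt-rich set and 0 higher, with a median of -1.69. Cd22, a B cell inhibitory receptor, stood at 5.15, 5.24 and 5.54 against 9.31, 6.75 and 8.71. Ms4a1, which encodes CD20, stood at 4.50, 4.53 and 4.54 against 8.52, 5.39 and 6.99. Within the crypt-poor set siYAP/TAZ 2 was the highest and siGFP 3 the lowest for both. Bank1 and Cd37 differed by -2.92 and -2.37, while the plasma cell genes Jchain, Derl3 and Tnfrsf17 overlapped. Summed over the list on the linear scale, the intensity was between 833 and 1029 in the crypt-rich set and between 1421 and 5069 in the crypt-poor set. The part of these cells in the other differences was not tested. Ebf1, the B lineage factor outside that list, had the largest difference of all eligible lower genes (-2.95).

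Other cells moved less. Of 16 T cell markers 1 was lower (6.25%, against 4.47% of all genes), Ptprc (-1.77), which all white blood cells carry, B cells included. Of 14 fibroblast markers 2 were lower (14.3%), the collagens Col6a1 (-1.18) and Col1a1 (-1.07), and of 10 smooth muscle markers 1 (10%), the myosin kinase Mylk (-1.30). Summed over the smooth muscle list, the intensity was between 1127 and 1599 in the crypt-rich set and between 2261 and 2649 in the crypt-poor set. Mylk carried much of that gap. Without it the sums lay between 779 and 843 against 963 and 1125, the contractile genes Acta2, Actg2 and Tagln overlapped, and Smtn had the opposite sign (0.75). Over the fibroblast list the sums lay between 1403 and 2357 against 2355 and 3120, and just overlapped. The myeloid list was in sum higher in the crypt-rich set, between 2485 and 2897 against 1533 and 1973, and lysozyme Lyz2 (1.11), the brightest of its genes, carried most of that gap. Without Lyz2 the sums overlapped, between 874 and 1206 against 936 and 1107. Of the 13 myeloid genes 8 had a lower mean in the crypt-rich set, among them the complement genes C1qa (-0.43) and C1qb (-0.68), and the list's median was -0.22.

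Interferon response genes, which cells switch on against viruses, were lower in the crypt-rich set in 11 of 20 cases and higher in 0, with a median of -1.23. Oas2, a sensor of double-stranded RNA, stood at 8.94, 7.70 and 7.87 against 10.49, 10.86 and 10.01. Rsad2, the antiviral protein viperin, stood at 7.63, 7.22 and 8.26 against 9.52, 9.66 and 9.10. Neither overlapped, and siGFP 3 was the highest array for both. The median level of the list was instead highest in siYAP/TAZ 2, at 9.62, with 9.34 in siGFP 3 and 9.24 in siYAP/TAZ 3. Mx1 (-1.76) and Zbp1 (-1.74) were lower as well. In siGFP 2 alone the count was 14 of 20. The shRNA arrays were lower still for Oas2, at 6.26 and 5.84. The interferon element, a pair of GAAA runs with 2 bases between them, was present in 8 of 14 of these genes with a window (57.1%), against 3.49% of all windows. It is shown for Rsad2, chosen after its values were seen (chr12:26456453-26456702 on the minus strand), in capitals, read on the opposite strand and beginning 120 bases before the start.
Rsad2 promoter: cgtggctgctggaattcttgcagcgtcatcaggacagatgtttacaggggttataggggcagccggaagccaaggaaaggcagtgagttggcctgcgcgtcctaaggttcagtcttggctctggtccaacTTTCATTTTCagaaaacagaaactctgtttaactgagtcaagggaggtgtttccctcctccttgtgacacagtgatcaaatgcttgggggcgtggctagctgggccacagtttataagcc
No other list that was searched held it in more than 14.3% of its windows.

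Outside these lists, Clca3b, of the CLCA family, led the higher genes and stood at 11.54, 10.04 and 10.31 against 8.27, 7.13 and 6.96. Kcne3, a potassium channel subunit that sustains chloride secretion, stood at 9.13, 9.38 and 8.90 against 6.72, 5.89 and 6.0. Hsd11b2, which inactivates glucocorticoids, stood at 8.97, 8.98 and 7.07 against 6.06, 5.43 and 4.99. All were without overlap, and siGFP 2 was the lowest crypt-rich array for Kcne3 and Hsd11b2. Other large higher differences were those of E2f8 (3.02), a repressor of the cell cycle, Fads2 (2.98), a fatty acid desaturase, and Plp2 (2.85). On the lower side Malat1, a nuclear long noncoding RNA, stood at 10.58, 8.75 and 10.98 against 12.48, 12.67 and 12.06, and Taf1d, a host gene of small nucleolar RNAs, at 7.93, 7.91 and 11.16 against 12.12, 11.28 and 11.57. For Taf1d siGFP 2 lay just below the crypt-poor arrays. Its difference of -2.66 belongs to the brightest of its probe sets only. The 8 others lay between -1.09 and 0.91, and the mean of all of them differed by -0.40, under the 2-fold limit. Slfn4 (-2.68), Ccdc42 (-2.31), Nlrp9b (-2.27) and the B cell kinase gene Prkcb (-2.34) completed the lower group.

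**Figure D3:**
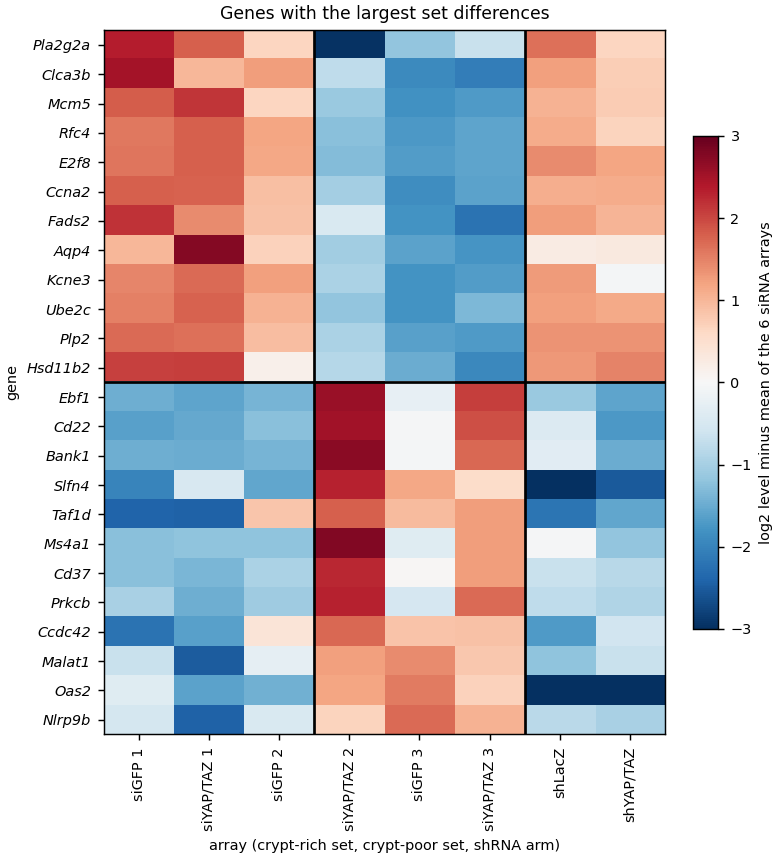
Level of the 12 genes with the largest difference in each direction on each array, as the log2 level minus the mean of the 6 siRNA arrays (colour, with values beyond 3 in size shown at the end of the scale). The upper genes are high in the crypt-rich set and mostly above the mean in the shRNA arm, and in the lower group the B cell genes Cd22, Bank1 and Ms4a1 are lower in siGFP 3 than in the other crypt-poor arrays.

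The shRNA arrays, which had no part in the choice of sets or genes, lay on the crypt-rich side for most called genes. Of the 1931 higher genes, shLacZ lay above every crypt-poor array for 1912 (99.0%) and shYAP/TAZ for 1832 (94.9%). Of the 891 lower genes, the 2 arrays lay below every crypt-poor array for 871 (97.8%) and 851 (95.5%). These genes were chosen with the crypt-poor arrays at an extreme, so a further array tends to lie beyond them. On the crypt-rich side of the midpoint between the set means, shLacZ lay for 1830 (94.8%) of the higher genes and shYAP/TAZ for 1522 (78.8%). For the lower genes the figures were 856 (96.1%) and 815 (91.5%). With 1 array each and with the low small nucleolar RNA level that they share with the arrays numbered 1, this is a description. Within the crypt-rich set siGFP 2 lay nearer to the crypt-poor mean than to the mean of its 2 partners for 431 of the higher genes (22.3%) and for 356 of the lower ones (40.0%).

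The arrays were sorted on mitotic genes, so a difference of the other mitotic genes within each label follows largely from that sorting. Its median was 1.79 between siGFP 1 and 2 and siGFP 3, and 2.15 between siYAP/TAZ 1 and siYAP/TAZ 2 and 3. The called genes were chosen on these same arrays, so their large differences within a label follow in part from that choice and are given as a description. Among the 1931 higher genes, 1526 (79.0%) were at least 2-fold apart without overlap within siGFP, against 9.77% of all genes, and 1817 (94.1%) within siYAP/TAZ, against 15.5%. Among the 891 lower genes the figures were 488 (54.8%) against 4.6% and 865 (97.1%) against 12.2%. The B cell list had a median of -0.65 within siGFP and -2.37 within siYAP/TAZ, the brush border list -0.93 and -1.04, and the interferon list -1.03 and -1.57. The difference between the labels was not tested.

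**Figure D4:**
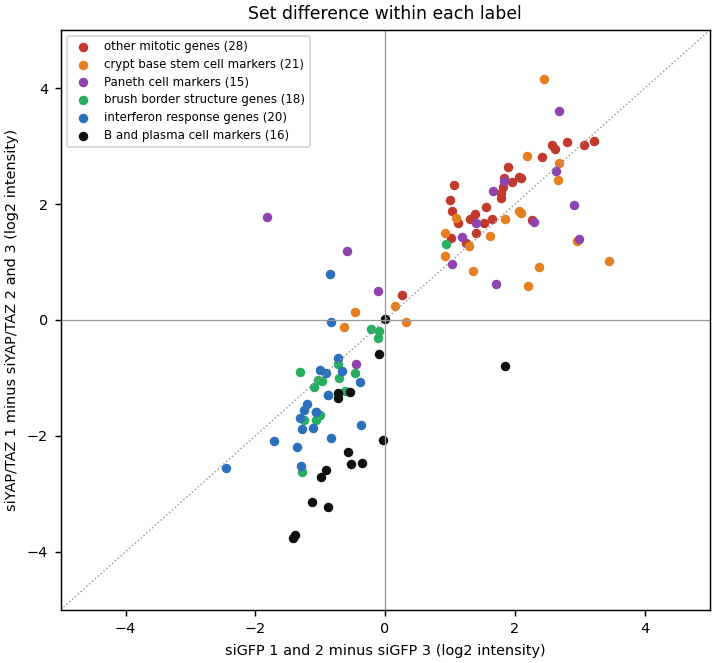
Set difference of each gene within the siGFP arrays (1 and 2 minus 3) and within the siYAP/TAZ arrays (1 minus 2 and 3), in log2 intensity, for 6 lists, with equal differences on the dotted line. The mitotic genes lie near the line, and most B cell genes lie below it, with medians of -0.65 and -2.37.

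Markers of the ileum, the last stretch of the small intestine, did not follow the sets. Fabp6, the ileal bile acid binding protein, stood at 11.16, 8.75 and 4.24 in the crypt-rich set and at 11.93, 10.45 and 4.40 in the crypt-poor set. The ileal bile acid transporter Slc10a2 likewise stood at 8.56, 9.28 and 4.79 against 9.22, 8.85 and 4.55. siGFP 2 and siYAP/TAZ 3, 1 array of each set, were thus the low ones. Of the 16 ileal genes 2 were lower (12.5%, against 4.47% of all genes), Amn (-1.21) and Muc3 (-1.01), and 0 higher. Of the 16 proximal genes 1 was higher (6.25%, against 9.69% of all genes), Cck, and 0 lower.

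The targets of the siRNAs did not follow the sets either. Yap1 stood at 7.16, 7.41 and 7.64 against 6.78, 7.20 and 7.47, and Wwtr1, which encodes TAZ, at 6.16, 5.60 and 5.36 against 5.94, 6.52 and 5.66. Both overlapped between the sets, and the siYAP/TAZ arrays overlapped with the siGFP arrays for both, so that these levels do not by themselves tell the labels apart. Among 22 YAP/TAZ target genes 2 were higher, Birc5 (1.37), which is also a mitotic gene, and F3 (1.11). The lower ones were 2 as well, Birc2 (-1.11) and Ereg (-1.03), and the median was -0.42. Each count is 9.09% of the list, against 9.69% of all genes higher and 4.47% lower. A second, dimmer probe set of Birc2 differed by 0.28, and the mean of both by -0.41, under the 2-fold limit.

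The study was designed to compare siYAP/TAZ with siGFP, with 3 arrays each. In limma, 0 of 19938 genes (0.0%) passed a Benjamini-Hochberg adjusted p of 0.05, with 85 higher and 152 lower at an unadjusted p under 0.05, and limma with a trended robust prior also called 0. With the set, itself taken from these arrays, as a covariate, the limma calls were again 0 (0.0%), with 715 higher and 704 lower at an unadjusted p under 0.05 and a smallest adjusted p of 0.278. That p belonged to B3galt5, a glycan enzyme, and Rdh7, a retinol dehydrogenase, both singled out after their values were seen. B3galt5 was higher by 3.31 in the siYAP/TAZ arrays with the covariate and by 2.82 without it, and Rdh7 differed by -2.68 and -2.45. Without siYAP/TAZ 1 the fit without the covariate called 13 genes by limma. Without siGFP 3 the crypt-poor set holds siYAP/TAZ arrays only. The fit with the covariate then compares siYAP/TAZ 1 with siGFP 1 and siGFP 2. It rests on a lone siYAP/TAZ array, so its calls are not given.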

How the data were processed

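The deposited values are linear intensities, 1 for each probe set on each array, from total RNA labelled with biotin by an Affymetrix kit, per the labels' protocols. The authors' background correction, summarisation and scaling were not given in the sources used here, and each array's lowest deposited value lies just above 16, so differences of dim genes may be understated. The values were put on the log2 scale and quantile normalized over 8 arrays.

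Of 28853 probe sets, 21789 named 1 gene, 1621 named several and 5443 none. Symbols were updated from RefSeq for 21698. Each of 19938 genes was represented by its brightest probe set. Genes of related sequence can share signal. The number of arrays limits the precision.

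The sets, members and lists were chosen with earlier results of these data known, and the 2-fold limit without overlap is descriptive. Genes named are the 12 largest differences in each direction (predicted genes, receptor families, antigen receptor segments and small RNAs passed over), up to 4 of each of 41 lists, and Yap1 and Wwtr1. Other named genes were chosen after their values were seen. Treatment was fitted with limma 3.58.1 in R 4.3.3 (lmFit, eBayes, Benjamini-Hochberg). The labels do not tie arrays to separate mice, so its p-values rest on a spread between samples that may be technical only. The methods were tested on simulated data with less noise than these arrays, whose median residual SD was 0.42, or 0.29 with the set as a covariate. Such data do not show how many treatment differences would be missed here. The promoter windows are RefSeq's for GRCm38.p6. Alternatives are given in the closing section.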

Additional observations from a re-analysis of the deposited data

Results flagged for a closer look

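Some levels moved in opposite directions within the labels, every array of siGFP 1 and 2 against siGFP 3 one way and siYAP/TAZ 1 against siYAP/TAZ 2 and 3 the other. The values are the set difference within siYAP/TAZ minus that within siGFP (log2), and none of these differences between labels was tested. Retnlb, a secreted goblet cell protein induced by infection, had 7.87, with 11.26 in siYAP/TAZ 1 against 5.43 in siGFP 1. Its gap within siGFP was narrow, with siGFP 3 at 5.53, so the value rests mostly on siYAP/TAZ 1. Cd14, a co-receptor for bacterial lipopolysaccharide, had 3.22. The gasdermin genes Gsdmc2 and Gsdmc4 had -4.10 and -3.31, and they share sequence. Rgs13, a marker of tuft and germinal centre B cells, had -2.20. Jchain, the joining chain of secreted antibodies, had -2.63, although siYAP/TAZ 1 (5.70) and siYAP/TAZ 3 (5.79) were close. Slc10a2, the ileal bile acid transporter, had 4.57, mostly from the low levels in siGFP 2 (4.79) and siYAP/TAZ 3 (4.55). Its other arrays were close within each label, at 8.56 and 8.85 in siGFP 1 and 3 and 9.28 and 9.22 in siYAP/TAZ 1 and 2. Cd3g, of the T cell receptor complex, had -1.80. For lists, taking the median level of the list on each array, the value was -0.97 for T cell markers, -0.43 for Notch target genes, -0.29 for smooth muscle markers, -0.25 for enteric neuron and glia markers and 0.21 for myeloid markers.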

How the results depend on the processing

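No gene counted and named as higher or lower changed direction under the alternatives, but sizes moved by more than the spread within a set for 46 named genes within siGFP, 70 within siYAP/TAZ, 127 between the arrays numbered 2 and 91 in siGFP 2 alone. Of 41 list medians 15 changed sign under at least one alternative. Between the arrays numbered 2 the sign changed for 10, which include the villus tip (-0.67 to 0.32), fat absorption (-0.70 to 0.44), mid villus (-0.41 to 0.39) and xenobiotic metabolism genes (-0.60 to 1.13). It changed for 8 in siGFP 2 alone, fat absorption (0.09) among them, and within siGFP for 5, such as goblet markers (0.21 to -0.09) and antigen presentation genes (-0.44 to 0.52). Taking the mean of all probe sets ended the calls of Taf1d and Birc2 and moved Tk1 from 0.37 to 1.03. The number of lower genes was 1371 with log2 of the value minus 15. Within the siYAP/TAZ arrays alone 3099 genes were higher and 2426 lower, and siGFP 2 alone against the crypt-poor arrays, added after seeing the data, gave 1283 and 455. Leaving out each array in turn gave 1564 to 2649 higher and 568 to 1809 lower genes. The lowest lower count was without siYAP/TAZ 1 and the highest without siGFP 2. Centring on the 75th percentile moved the median difference of all genes from -0.09 to -0.21 and gave 1661 higher and 1131 lower genes. The treatment count was 0 to 13 without each array in turn, 13 being without siYAP/TAZ 1, and 0 to 31 with the set as a covariate as well, a fit added after seeing the data, where leaving out siYAP/TAZ 1 gave 1 and leaving out siGFP 3 gave 31. In those fits a lone array of a group is assumed to vary like the others. The cause of these changes was not tested. With the replicate number as a block the treatment fit called 1 gene, and the set difference, which then rests on number 2 alone, had 1662 higher and 955 lower genes. Deviations of arrays with the same number correlated with r of 0.75, -0.13 and 0.57, so the numbers were not taken to pair the arrays.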

Other observations

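Genes of protein synthesis outside the nucleolus also differed between the sets. Of 59 cytoplasmic ribosomal protein genes 19 (32.2%) were higher in the crypt-rich set and 0 lower, with a median difference of 0.83, and of 77 mitochondrial ribosomal protein genes 36 (46.8%) were higher and 1 lower, with a median of 0.95. Of 27 respiratory chain genes 6 were higher (22.2%, against 9.69% of all genes) and 0 lower. Sdhd, an anchor subunit of succinate dehydrogenase, stood at 9.53, 9.80 and 8.96 against 7.56, 7.48 and 8.47, and Uqcrc2, of complex III, at 10.92, 10.78 and 10.24 against 9.33, 9.34 and 9.74. Cox4i1, of cytochrome oxidase, did not overlap the other way, with -0.60.

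Cholesterol synthesis genes split the crypt-rich set itself. Their median level was 9.48 and 9.40 in siGFP 1 and siYAP/TAZ 1, 7.87 in siGFP 2 and between 6.98 and 7.74 in the crypt-poor set. Of the 14, 2 were higher (14.3%, against 9.69% of all genes), Idi1 (2.10) and Mvk (1.28). The MHC class II gene H2-DMa, which loads peptides, stood at 8.78, 8.50 and 6.82 against 6.72, 5.36 and 6.77 (1.75), while Tap2, the peptide pump of the class I pathway, was lower (-1.28). Cyp1a1, the enzyme induced through the aryl hydrocarbon receptor, stood at 4.56, 4.23 and 5.04 against 4.70, 10.67 and 9.04, so it was high in siGFP 3 and siYAP/TAZ 3 only. Among 7064 probe sets that name no gene or several, 594 (8.41%) were higher and 293 (4.15%) lower, near the shares of the named genes.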
